A study of Mus musculus with 240 samples.

Results

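This section describes 9 transcription factors of the oligodendrocyte precursor cell (OPC) lineage: Olig1, Olig2, Sox10, Nkx2-2, Sox5, Sox6, Sox8, Sox2 and Sox4. They were taken by gene symbol from a table of 34623 genes measured in 240 mouse brain libraries, and all 9 symbols were found. The cells, labelled as brain OPCs or brain tumour cells, were isolated by laser capture microdissection from cryosections, at 12, 90 or 150 days after the start of tamoxifen (days post induction, dpi). Bulk libraries came from 37 mice (18 females and 19 males), 1 or 2 libraries per mouse, all titled tdTpositive. Trp53-/- Nf1-/- mice, titled CKO, were sampled at 12 dpi (7 mice) and 90 dpi (7 mice). Cells labelled as brain tumour cells of Trp53-/- Nf1-/- mice, titled Tumor, were sampled at 150 dpi (7 mice), and wild-type mice (WT) at 12 dpi (5 mice), 90 dpi (5 mice) and 150 dpi (6 mice). The other 192 libraries held 10 cells each, all from Trp53-/- Nf1-/- mice at 12 or 90 dpi: 56 per time were 10 cells captured together (10-cell samples) and 40 per time were aliquots of a larger pool (pool-and-split controls). All groups, WT included, share the tamoxifen treatment. The recombinase driver, the mouse strain and the ages are not given in the sources used here.

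The 9 genes belong to 3 families of DNA-binding proteins. Olig1 and Olig2 are basic helix-loop-helix factors, of which Olig2 specifies the lineage and Olig1 acts mainly in maturation. Nkx2-2 is a homeodomain factor linked to the start of differentiation. The other 6 carry the SOX family's HMG box: Sox10 and Sox8 (SOXE group) sustain lineage identity and myelin gene expression, Sox5 and Sox6 (SOXD group) hold precursors back from differentiation, Sox2 (SOXB1 group) and Sox4 (SOXC group) are progenitor factors. Olig2, Sox2 and Sox10 are also used as markers of gliomas.

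In the files' annotation (GRCm38) Olig2 (chr16:91225550-91228677) and Olig1 (chr16:91269772-91271933) are neighbours. The SOXE genes are Sox10 (chr15:79154913-79164490) and Sox8 (chr17:25565892-25570686), the SOXD genes Sox5 (chr6:143828425-144781977) and Sox6 (chr7:115470872-116038796). Nkx2-2 lies at chr2:147177546-147194243, Sox2 at chr3:34650405-34652461 and Sox4 at chr13:28948919-28953713.

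Paralogs of this kind share sequence, so the longest stretch of identical bases between annotated transcripts (GENCODE M21, GRCm38) of related members was found, to show how far their reads can be told apart. Between Olig1 and Olig2 it was 17 bases, inside the basic helix-loop-helix region, and between Sox8 and Sox10 it was 26 bases, inside the HMG box.
Olig1 and Olig2: aagatcaacagccgcga
Sox8 and Sox10: gccttcatggtgtgggcacaggcggc
The longest shared run was 23 bases for Sox5 and Sox6, a stretch of low complexity, and 16 bases for Sox4 and Sox2. No window of 50 bases was shared between members. Other overlaps were larger: 54.1% of the 50-base windows of Sox4 are also annotated to Gm26735, a long noncoding RNA on the opposite strand, with 2616 shared exon bases. For Sox8 and Sox5 these shares were 8.99% and 8.98%, for Nkx2-2 8.04% and for Olig1 5.11%. Gm26735 has no row of its own in the table of counts. Whether counting used strand is not given in the sources used here, so reads of Sox4 and of its antisense neighbour could not be told apart.

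Promoter windows of 300 bases (250 before and 50 after a RefSeq start, GRCm38.p6) were available for 7 members, 12 windows in all. The 3 shown are Olig2, the factor that specifies the lineage, Sox6, whose level differed most in tumours, and Sox8, whose window holds a CACGTG motif. Olig2 lies on the plus strand (chr16:91225300-91225599), Sox6 on the minus strand (chr7:116038695-116038994, the most upstream of its 6 windows) and Sox8 on the minus strand (chr17:25570637-25570936). All are written 5′ to 3′ along the gene, with capitals marking each E-box (CANNTG), the motif class that helix-loop-helix factors bind.
Olig2: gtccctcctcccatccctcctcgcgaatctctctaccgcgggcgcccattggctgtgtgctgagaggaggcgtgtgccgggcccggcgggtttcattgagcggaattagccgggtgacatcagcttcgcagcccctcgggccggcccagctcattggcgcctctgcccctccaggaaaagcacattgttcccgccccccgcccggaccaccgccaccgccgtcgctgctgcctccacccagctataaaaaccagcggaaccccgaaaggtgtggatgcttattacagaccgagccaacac
Sox6: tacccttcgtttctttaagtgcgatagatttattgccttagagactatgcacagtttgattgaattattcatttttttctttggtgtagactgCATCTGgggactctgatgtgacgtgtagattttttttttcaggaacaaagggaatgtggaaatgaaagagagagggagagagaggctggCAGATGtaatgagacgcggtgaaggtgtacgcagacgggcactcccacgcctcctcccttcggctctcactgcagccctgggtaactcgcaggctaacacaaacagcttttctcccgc
Sox8: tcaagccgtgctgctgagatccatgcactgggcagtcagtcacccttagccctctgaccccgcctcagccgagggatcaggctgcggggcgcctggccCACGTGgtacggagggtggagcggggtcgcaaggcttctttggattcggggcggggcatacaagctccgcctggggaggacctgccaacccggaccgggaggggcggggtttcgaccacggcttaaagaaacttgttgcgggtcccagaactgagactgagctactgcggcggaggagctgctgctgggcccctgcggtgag
The Olig2 window held no E-box, the Sox6 window 2 and the Sox8 window 1. An E-box occurred in 10 of the 12 windows (5 of 7 members), against 72.3% of all 32851 RefSeq promoter windows of the same length. A SOX core motif (ACAAT, either strand, which can overlap an E-box as in ACAATTG) occurred in 6 of the 12 (4 of 7 members), against 31% of all windows. TATAAA on either strand occurred in 3 of the 12 (2 of 7 members), 1 of them the Olig2 window, against 13.6% of all. Sox6 alone has 6 of the 12 windows, so the shares of windows are not shares of members. These are matches of letters and nothing was measured at these sites.

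Bulk libraries held between 0.0937 and 23.2 M counts (1 M is 1000000), and small libraries between 1.64 and 6.49 M. The shallowest bulk library was the only one of animal WT_21167 (90 dpi), with 0.0937 M counts and 0 to 15 counts per member, where a count of 0 allows up to 32.0 counts per 1000000 (CPM). In the other 36 animals the lowest member count was 17. The second library of CKO_20647 stood apart from the first, with 13265 against 17957 genes detected and with Sox4 at 4.97 against 162 CPM. In the other 10 animals with 2 libraries, the members differed between libraries by at most 0.93 on the log2(CPM + 1) scale. Nf1 ran from 176 to 216 CPM in CKO against 261 to 357 in WT at 12 dpi, and its log2 change by edgeR was -0.67 (SE 0.14, adjusted p 0.0918; 0.00427 by DESeq2). At 90 dpi Nf1 ran from 150 to 302 CPM in CKO and from 274 to 343 in WT (-0.62, adjusted p 0.145; 0.0218 by DESeq2), and at 150 dpi from 149 to 273 CPM in tumours and from 252 to 355 in WT (-0.47, adjusted p 0.00354). Without animal CKO_20647 the change of Nf1 at 90 dpi was -0.74 and was called (edgeR adjusted p 0.00549). Trp53 overlapped between genotypes at each time and was not called at 12 or 90 dpi, but it was higher in tumours than in WT (0.74, edgeR adjusted p 0.00971) and in CKO (0.70, adjusted p 0.00889). The counts cover whole genes, so they do not separate a deleted part. All 8 OPC markers tested (among them Pdgfra, Cspg4 and Ptprz1) were detected in every bulk group, but so were all 10 neuronal markers, whose summed level in WT at 150 dpi (6882 to 10191 CPM) was above that of the OPC markers (1909 to 4062 CPM).

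The first question was how the factors differed between tumours and other cells. All 9 rose in tumours, against WT at 150 dpi and against CKO at 90 dpi, by edgeR's quasi-likelihood test at an adjusted p under 0.05 over all 16349 genes. In these comparisons 46.2% and 49.1% of all genes were called, and 24.3% and 26.4% were called higher. The median log2 change of the 9 was 1.49 against WT and 1.48 against CKO, beside 0.06 and 0.12 over all genes tested. Both comparisons share the 7 tumours, and in the second, time and tumour cannot be told apart. For 6 members every tumour lay above every WT mouse at 150 dpi, and for all 9 every tumour lay above every CKO mouse at 90 dpi; 6.72% and 6.77% of all genes were placed this way. Markers of other cell types also differed: the neuronal sum was 224 to 1501 CPM in tumours, the proliferation sum (10 genes) 513 to 2370 CPM against 9.07 to 33.0 in WT, and the microglial sum (8 genes) 257 to 926 against 118 to 183 CPM. The astrocyte sum (8 genes) was 1083 to 3624 in tumours and 2698 to 4010 CPM in WT, and the endothelial sum (8 genes) 113 to 242 and 211 to 296 CPM. Single astrocyte genes went both ways against WT, with 4 called higher and 2 lower by edgeR (median log2 change 0.60), so the sum does not give their common direction. In bulk samples, fewer cells of a type and less RNA per cell cannot be told apart, and apart from the comparison with OPC markers the part of these shifts in the members' levels was not tested.

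**Figure D1:**
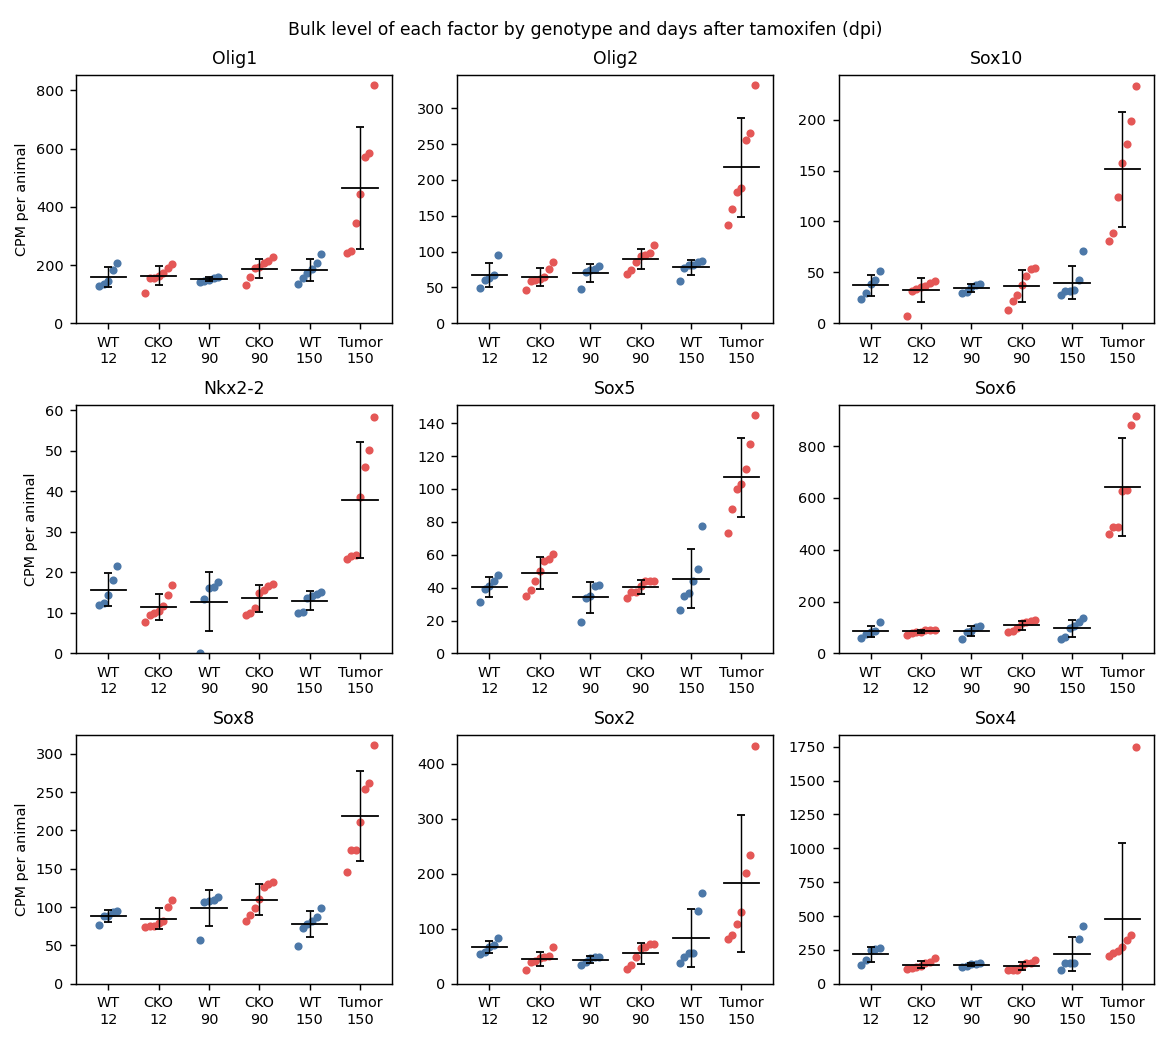
CPM (y axes, starting at 0) of each factor in each mouse, by genotype (WT blue, Trp53-/- Nf1-/- red) and days after tamoxifen (x axis); points are sorted within a group, lines are means and bars 1 SD. The tumours sit above all other groups for Sox6 (462 to 916 CPM), while 1 tumour stands alone for Sox4 (1746 CPM).

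Olig2 was at 58.5, 81.2 and 86.7 CPM (lowest, median and highest) in WT at 150 dpi, and at 68.9, 94.1 and 109 CPM in CKO at 90 dpi. In the 7 tumours it was at 138, 160, 184, 189, 255, 266 and 333 CPM, above every mouse of the other 2 groups. Its log2 change was 1.49 against WT (SE 0.18, adjusted p 1.09e-08) and 1.27 against CKO (SE 0.17, adjusted p 6.60e-08). Olig1, its neighbour on chromosome 16, ran from 134 to 239 CPM in WT at 150 dpi (median 178) and from 130 to 227 in CKO at 90 dpi (median 192). In tumours it was at 242, 248, 343, 443, 571, 585 and 819 CPM, all above both groups, although the lowest tumour was close to the highest WT mouse, WT_21593. The log2 change of Olig1 was 1.35 against WT (SE 0.22, adjusted p 2.70e-06) and 1.30 against CKO (SE 0.20, adjusted p 1.85e-06). The ratio of Olig1 to Olig2 did not pass the test between tumours and WT (log2 difference -0.18, two-sided exact permutation p 0.426 over 1716 assignments, adjusted p 0.777 over 12 ratio tests).

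Sox10, which directly drives myelin genes, lay at 27.9, 32.5 and 71.2 CPM in WT at 150 dpi and at 13.5, 37.8 and 54.3 CPM in CKO at 90 dpi (lowest, median, highest). Tumours held 81.2, 89.0, 124, 157, 176, 199 and 233 CPM, all above both groups. Its log2 change was 1.91 against WT (SE 0.32, adjusted p 5.38e-06) and 2.05 against CKO (SE 0.30, adjusted p 4.38e-07). Sox8, the close relative that overlaps it in function, was at 49.3, 80.0 and 99.1 CPM in WT and at 81.7, 110 and 132 CPM in CKO. In tumours Sox8 was at 146, 175, 175, 211, 255, 262 and 312 CPM, again above every mouse of both groups. Its change was 1.49 against WT (SE 0.17, adjusted p 5.83e-09) and 0.99 against CKO (SE 0.16, adjusted p 3.38e-06). The ratio of Sox8 to Sox10 differed by -0.44 between tumours and WT, which did not pass (exact permutation p 0.25, adjusted p 0.75).

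Nkx2-2, the homeodomain factor, was at 9.94, 14.0 and 15.1 CPM in WT at 150 dpi and at 9.47, 14.8 and 17.2 CPM in CKO at 90 dpi. The tumours held 23.2, 24.0, 24.3, 38.5, 45.9, 50.1 and 58.4 CPM, with no overlap, and fell into 3 tumours near 24 CPM and 4 at 38.5 CPM or more. The log2 change was 1.55 against WT (SE 0.25, adjusted p 2.71e-06) and 1.48 against CKO (SE 0.23, adjusted p 1.49e-06).

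Sox6 showed the largest change of the 9 members in both tumour comparisons. It was at 55.8, 101 and 138 CPM in WT at 150 dpi and at 81.4, 118 and 127 CPM in CKO at 90 dpi. In tumours it was at 462, 487, 488, 628, 629, 879 and 916 CPM, so the lowest tumour stood far above the highest mouse of either group. The log2 change was 2.77 against WT (SE 0.21, adjusted p 1.15e-13; 6.80-fold) and 2.55 against CKO (SE 0.19, adjusted p 1.12e-13; 5.86-fold). Sox5, the other SOXD factor in the set, lay at 26.7, 40.5 and 77.6 CPM in WT at 150 dpi and at 33.6, 41.2 and 44.2 CPM in CKO at 90 dpi. Its tumour levels of 73.0, 88.0, 100, 103, 112.4, 127 and 145 CPM overlapped WT through 1 tumour, below WT_21592. The change of Sox5 was 1.26 against WT (SE 0.19, adjusted p 8.95e-07) and 1.40 against CKO (SE 0.18, adjusted p 3.49e-08).

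The pair changed unequally. The log2 ratio of Sox5 to Sox6 was -1.10 ± 0.31 in WT at 150 dpi (SD, n = 6) and -2.56 ± 0.47 in tumours (SD, n = 7), with no overlap between the groups. The difference of -1.46 had a two-sided exact permutation p of 0.00117 over 1716 assignments and an adjusted p of 0.0140. Of the 12 ratio tests (4 pairs, each at 12, 90 and 150 dpi) it was the 1 that passed. At 12 and 90 dpi the Sox5 to Sox6 ratio differed by 0.23 and -0.05 between CKO and WT (exact permutation adjusted p 0.687 and 0.791).

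Sox2, which maintains neural progenitors, was at 37.9, 56.0 and 165 CPM in WT at 150 dpi, with WT_21591 (133 CPM) and WT_21592 (165 CPM) apart from the other 4 mice. In CKO at 90 dpi it was at 26.7, 65.3 and 73.1 CPM. Tumours held 80.5, 89.3, 108, 131, 202, 234 and 432 CPM, overlapping those 2 WT mice and lying above all CKO mice. Its log2 change was 1.15 against WT (SE 0.32, adjusted p 0.00354) and 1.62 against CKO (SE 0.31, adjusted p 5.19e-05). Sox4 had the same 2 WT mice high (328 and 427 CPM, the other 4 at 98.9 to 155) and ran from 98.7 to 174 CPM in CKO. In tumours it was at 203, 229, 238, 269, 321, 362 and 1746 CPM, of which 6 overlapped WT and 1, Tumor_16839, stood apart. The change of Sox4 was 1.15 against WT (SE 0.37, adjusted p 0.00978) and 1.80 against CKO (SE 0.36, adjusted p 8.16e-05). Without Tumor_16839 the change against WT was 0.34 (SE 0.24, edgeR adjusted p 0.264) and the call was lost, while against CKO it was 1.05 (SE 0.23, adjusted p 0.000274). For Sox2 the values without that tumour were 0.84 (adjusted p 0.0187) and 1.30 (adjusted p 0.000238). Leaving out the second library of CKO_20647 changed no call of a member in the comparison of tumours with CKO.

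**Figure D2:**
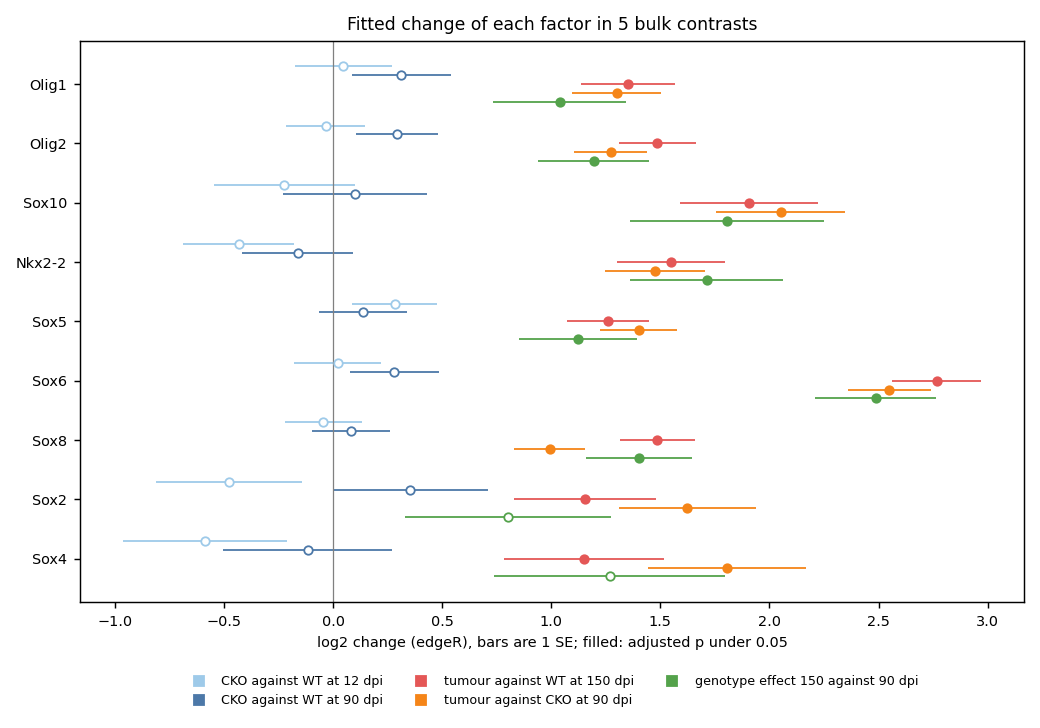
Fitted log2 change (x axis, edgeR) of each factor (y axis) in 5 bulk contrasts, bars showing 1 SE and filled points an adjusted p under 0.05. The 9 factors lie to the right in both tumour contrasts, Sox6 farthest, and around 0 in CKO against WT at 12 and 90 dpi.

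On the log2 scale every tumour was above the WT mean at 150 dpi for all 9 factors. In CPM, Tumor_16713 was below the WT mean for Sox4 (203 against 219 CPM) and Tumor_16840 for Sox2 (80.5 against 82.7 CPM). The profiles of the tumours differed. Tumor_16839 was the highest of the 7 for Olig2, Sox5, Sox2 and Sox4 and the lowest for Sox10. Tumor_16840 was the highest for Olig1, Nkx2-2 and Sox8 and the lowest for Sox6 and Sox2. The highest Sox6 level was in Tumor_16713, which was the lowest for Sox8 and Sox4, and the highest Sox10 level was in Tumor_16844. Tumor_21256 was the lowest for Olig1 and Olig2, Tumor_21349 for Nkx2-2 and Sox5. The highest tumour exceeded the lowest 8.61-fold for Sox4, 5.37-fold for Sox2 and 3.39-fold for Olig1, but 1.98-fold for both Sox5 and Sox6.

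**Figure D3:**
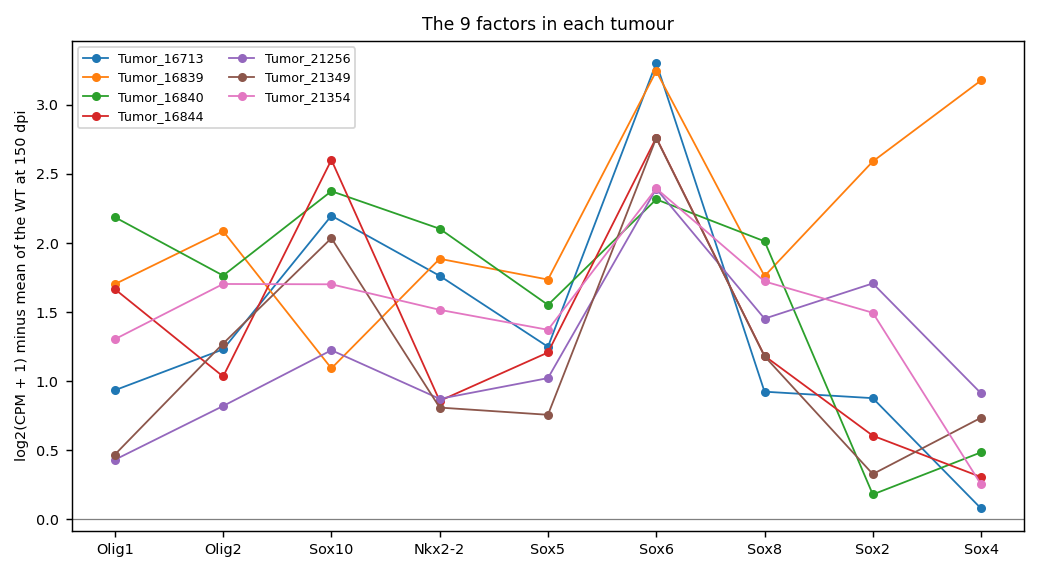
Level of each factor (x axis) in each of the 7 tumours as log2(CPM + 1) minus the mean of the 6 WT mice at 150 dpi (y axis), 1 line per tumour. The lines cross between factors, and Tumor_16839 is alone at the top for Sox2 and Sox4.

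Markers of OPCs moved with these factors. Of the 8 OPC markers 7 rose and none fell in both tumour comparisons, with a median log2 change of 1.41 against WT and 1.28 against CKO. Each factor was therefore also taken relative to the mean log2(CPM + 1) of the 8 markers in the same mouse, a scaling added after seeing the data, and compared with exact permutation tests adjusted over 18 tests. On that scale Sox6 was higher in tumours by 1.57 than in WT (adjusted p 0.0105) and by 1.47 than in CKO (adjusted p 0.0105). It was the 1 member that passed, in 2 of the 18 tests. Sox10 came next, at 0.72 against WT (exact permutation p 0.0845, adjusted p 0.380) and 1.01 against CKO (p 0.0291, adjusted p 0.175). Olig1 (0.07 and 0.13), Olig2 (0.25 and 0.17), Nkx2-2 (0.23 and 0.30) and Sox5 (0.10 and 0.31) had smaller differences, none of which passed. Relative to the markers the sign differed between the comparisons for Sox2 (-0.06 against WT, 0.49 against CKO), Sox4 (-0.32 and 0.39) and Sox8 (0.29 and -0.09), and none of these passed. The marker mean itself varied among tumours, from 7.98 to 9.42, against 7.25 to 8.01 in WT at 150 dpi. The markers include Pdgfra and Cspg4, known targets of these factors, so the scaling is not independent of the factors.

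**Figure D4:**
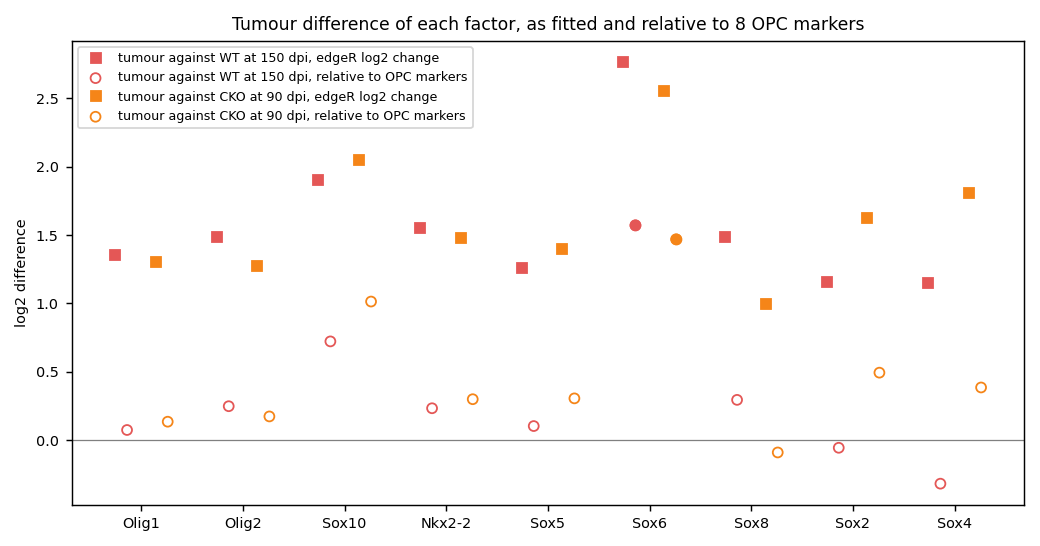
Log2 difference of each factor (x axis: factor, y axis: log2 difference) between tumours and WT at 150 dpi (red) or CKO at 90 dpi (orange), as fitted by edgeR (squares) and relative to the mean of 8 OPC markers (circles, filled where the adjusted exact permutation p was under 0.05). Sox6 keeps a difference of 1.57 and 1.47 relative to the markers, and most other circles lie near 0.

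Per kilobase of annotated exons (GENCODE M21), Olig1 had the highest level of the 9 in tumours, at 215 ± 96.8 CPM per kb (SD, n = 7). Sox4 (100 ± 117), Sox2 (88.7 ± 60.4) and Olig2 (86.1 ± 27.3 CPM per kb) followed and did not keep 1 order, since Sox4 exceeded Sox2 in 3 of 7 tumours and Sox2 exceeded Olig2 in 2 of 7. Without Tumor_16839 the mean of Sox4 was 56.4 CPM per kb, below Olig2 (78.5), Sox2 (68.5) and Sox8 (68.0 CPM per kb). Sox8 (70.3 ± 19.0), Sox10 (49.6 ± 18.5) and Sox6 (43.2 ± 12.7 CPM per kb) came next, with Sox10 above Sox6 in 4 of 7. Nkx2-2 (13.1 ± 4.97) and Sox5 (7.44 ± 1.67 CPM per kb) were lowest, in that order in all 7. The means had the same order in WT at 150 dpi, where Sox10 (13.0 ± 5.30 CPM per kb) was above Sox6 (6.53 ± 2.19) in 6 of 6 mice. The lengths join all annotated exons of a gene, 14.4 kb over 14 transcripts for Sox5 and 14.8 kb over 16 for Sox6. The other members have 1 to 4 transcripts. Which transcripts were expressed was not tested, so the places of Sox5 and Sox6 depend on these lengths.

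The second question was whether the factors differed before tumours were sampled. No member passed the edgeR test between CKO and WT at 12 or at 90 dpi, none had an unadjusted p under 0.05, and DESeq2 called none; 0.0183% and 0.0489% of all genes were called by edgeR. At 12 dpi Olig2 was at 49.5, 60.5, 63.0, 67.4 and 94.9 CPM in WT and ran from 46.4 to 85.5 CPM in CKO (median 61.1). Sox6 was at 59.2, 75.3, 84.1, 87.0 and 120 CPM in WT and at 72.1 to 92.1 CPM in CKO (median 83.7). The lowest changes were those of Sox4 (-0.59, SE 0.38), Sox2 (-0.48, SE 0.34) and Nkx2-2 (-0.43, SE 0.25), all with an edgeR adjusted p of 1.00. For Sox4 the WT mice held 141, 177, 252, 254 and 263 CPM and CKO mice 108 to 187 CPM (median 134), overlapping in the 2 lowest WT mice. At 90 dpi Olig1 was at 142, 147, 150, 154 and 161 CPM in WT and at 130 to 227 CPM in CKO (median 192), a difference of 0.31 (SE 0.23). The differences were 0.29 for Olig2 (SE 0.19), 0.28 for Sox6 (SE 0.20) and 0.35 for Sox2 (SE 0.35), with overlapping groups. Without the second library of CKO_20647 these 4 values were 0.35, 0.25, 0.33 and 0.42, and without the shallow WT_21167 they were 0.30, 0.25, 0.23 and 0.38, with no call.

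Between times within a genotype no member was called either. From 12 to 90 dpi in CKO, 0% of all genes were called by edgeR (696 at an unadjusted p under 0.05, 2 by DESeq2). Olig2 (0.46, SE 0.16) and Sox8 (0.37, SE 0.16) were the 2 members with an unadjusted p under 0.05, both with an adjusted p of 1.00 in edgeR. In WT from 12 to 90 dpi (0.00612% of genes called) Sox2 and Sox4 had the lowest values, both at -0.60 (SE 0.38 and 0.42), and no member had an unadjusted p under 0.05. In WT from 90 to 150 dpi (0.0183% called) Sox2 was at 0.82 (SE 0.37) and Sox8 at -0.41 (SE 0.19), each with an edgeR adjusted p of 0.558. DESeq2 called no member in these 3 comparisons. When only the compared groups were fitted, Sox4 was called between CKO and WT at 12 dpi (-0.71, edgeR adjusted p 0.0335) and Sox2 (-0.65, adjusted p 0.0387) and Sox4 (-0.65, adjusted p 0.0341) were called in WT between 90 and 12 dpi. Many more genes were called in all under that setting too, as listed in the last section.

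The change of the genotype effect over time was tested directly. From 12 to 90 dpi no member was called (0% of all genes by edgeR, 589 at an unadjusted p under 0.05, 6 by DESeq2) and no member had an unadjusted p under 0.05. From 90 to 150 dpi, where the mutant cells were tumours, 30% of all genes were called and 14.2% called higher, and 7 of the 9 members were called, all with a larger effect at 150 dpi. Sox6 was at 2.49 (SE 0.28, adjusted p 7.33e-09) and Sox10 at 1.81 (SE 0.45, adjusted p 0.00189). The other 5 were Nkx2-2 (1.71), Sox8 (1.40), Olig2 (1.19), Sox5 (1.12) and Olig1 (1.04). Sox4 was at 1.27 (SE 0.53, edgeR adjusted p 0.0670; 0.0211 by DESeq2) and Sox2 at 0.80 (SE 0.47, adjusted p 0.211). Without Tumor_16839 they were at 0.45 (edgeR adjusted p 0.343) and 0.48 (adjusted p 0.419).

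Related genes were followed in 4 lists, whose counts are read beside the 24.3% of all genes called higher and 21.9% called lower against WT, and 26.4% and 22.6% against CKO. The median change of all genes was 0.06 and 0.12. Of 13 other SOX genes 10 were tested, and against WT at 150 dpi 4 rose and 1 fell in tumours (median log2 change 0.44). Against CKO at 90 dpi 5 rose and none fell (median 0.69). Sox3, a SOXB1 relative of Sox2, ran from 1.54 to 11.7 CPM in tumours and from 0 to 1.16 in WT (3.12, SE 0.55, adjusted p 1.24e-05), with no overlap. Sox11, a SOXC relative of Sox4, was at 61.3 to 3300 CPM in tumours, with Tumor_16839 again the highest and the next at 630 CPM, and its change of 1.76 (SE 0.53, adjusted p 0.00579) was 0.32 (adjusted p 0.463) without that tumour. Sox17, an endothelial SOXF factor, fell (-1.53, SE 0.54, adjusted p 0.0190), but not called without WT_21591 (-0.96, edgeR adjusted p 0.150).

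Of 20 partners and progenitor factors 17 were tested, and 8 rose and 1 fell against WT (median 0.86) and 11 rose and 1 fell against CKO (median 1.08). Id3, an inhibitor of helix-loop-helix dimers, was at 53.2 to 129 CPM in tumours against 5.10 to 16.8 in WT (3.04, SE 0.28, adjusted p 3.40e-11). Tcf4, an E-protein that pairs with OLIG factors, fell by 0.68 on the log2 scale (SE 0.11, adjusted p 6.69e-06), with 1 tumour inside the WT range.

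Of 12 differentiation genes 5 rose and 2 fell against WT (median 0.35) and 5 rose and 3 fell against CKO (median 0.10). Bcas1, a marker of newly forming oligodendrocytes, was at 231 to 854 CPM in tumours against 75.5 to 95.9 in WT (2.84, SE 0.23, adjusted p 6.82e-13). Chd7, a chromatin remodeller that works with Sox10, was at 195 to 245 against 42.8 to 68.0 CPM (2.01, SE 0.14, adjusted p 1.88e-14), with no overlap. Smad7 fell by 1.27 (SE 0.20, adjusted p 2.07e-06) without overlap and Zeb2, which acts upstream of Smad7, by 0.80 (SE 0.15, adjusted p 2.33e-05). Of 12 known targets of these factors 11 were tested, and 5 rose and 1 fell against WT (median 0.64) and 4 rose and 3 fell against CKO (median 0.13). Erbb3 (2.43, SE 0.32, adjusted p 6.04e-08) and Pdgfra (1.54, SE 0.25, adjusted p 3.23e-06), receptor genes of precursors, rose. Pdgfra and Cspg4 of the target list and Gpr17 of the differentiation list are also in the OPC marker list. Of 10 oligodendrocyte markers 1 rose and 6 fell against WT (summed level 392 to 1640 CPM in tumours, 1563 to 3152 in WT).

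The 10-cell samples and pool-and-split controls gave each factor in small numbers of mutant cells. Each small library had at least 1 member with a count, and a median of 4.5 members (10-cell) and 5 (pool-and-split) at 12 dpi, and of 7 and 6 at 90 dpi. Olig1 was found in 54 of 56 and 56 of 56 10-cell libraries at 12 and 90 dpi, and in all 40 pool-and-split libraries at each time. Its median level was 175 and 338 CPM in 10-cell libraries, and 243 and 458 CPM in pool-and-split controls. Olig2 was found in 35 and 48 of 56 10-cell libraries and in 33 and 36 of 40 controls, and Sox10 in 27 and 48 of 56 and in 27 and 34 of 40. At the other end Nkx2-2 was found in 8 and 15 of 56 10-cell libraries and in 1 and 6 of 40 controls, and Sox8 in 14 and 22 of 56 and in 5 and 16 of 40. The median number of genes detected in a 10-cell library was 7550 at 12 and 10110 at 90 dpi; its part in these shares was not tested. At the median total of a small library a count of 0 allows up to 0.727 CPM, and these limits cover counting error only.

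Levels over time were compared between sets of libraries, 4 per time, defined by sex and the number ending the title. Female 1, female 2, male 1 and male 2 10-cell sets had Olig1 at 604, 157, 222 and 310 CPM at 12 dpi and at 715, 339, 331 and 272 CPM at 90 dpi, which overlap. The log2 difference of Olig1 was 0.33 (SE 0.43). Sox5 was at 4.48, 3.53, 0.47 and 0.39 CPM at 12 dpi and at 18.0, 6.30, 3.21 and 11.1 CPM at 90 dpi in the same order, a difference of 2.82 (SE 1.06, edgeR adjusted p 0.664). It was the 1 member of 9 with an unadjusted p under 0.05, and the 1 that DESeq2 called (2.80, adjusted p 0.0393). In pool-and-split controls Sox10 was at 33.2, 6.14, 11.8 and 24.2 CPM at 12 dpi and at 31.4, 192, 195 and 33.3 CPM at 90 dpi, a difference of 2.58 (SE 0.90, edgeR adjusted p 0.598). It was the 1 of 8 tested members with an unadjusted p under 0.05, and DESeq2 called none. Over the 40 controls at 90 dpi the median of Sox10 was 9.51 CPM and the highest library held 1942 CPM, so single libraries weigh heavily in these set levels. By edgeR no member was called in either kind, nor was any gene (0% and 0% of all genes; 1034 and 1050 genes at an unadjusted p under 0.05, 273 and 523 by DESeq2). Olig2 was at 14.6 to 82.3 CPM in the 12 dpi and 15.1 to 48.4 CPM in the 90 dpi 10-cell sets, a difference of -0.26 (SE 0.79). In controls it was at 10.1 to 19.1 and 20.6 to 35.5 CPM, a difference of 0.99 (SE 0.81, edgeR adjusted p 0.790).

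**Figure D5:**
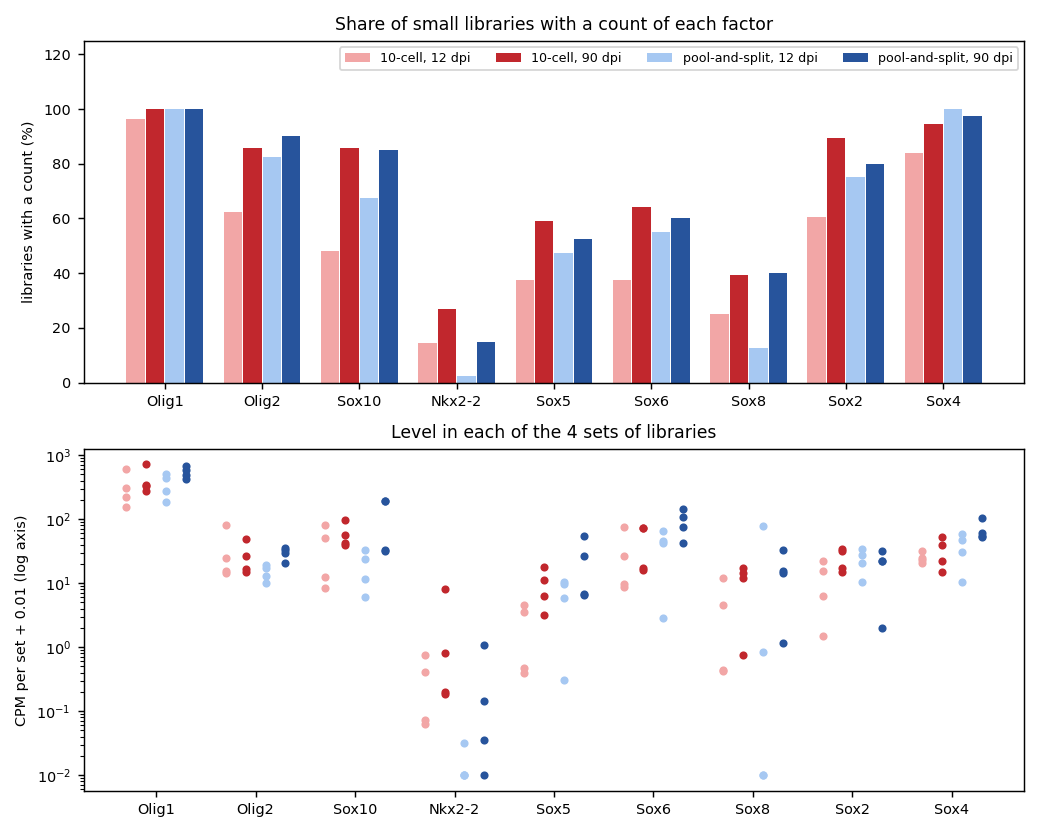
Top, share of small libraries with a count of each factor (y axis in percent); bottom, level in each of the 4 sets of libraries (CPM + 0.01, log axis), for 10-cell samples (reds) and pool-and-split controls (blues) at 12 and 90 dpi. Olig1 is found in 96.4% to 100% of libraries of each kind and time, Nkx2-2 in 2.5% to 26.8%, and the level of Olig1 in the sets overlaps between the times.

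The spread between libraries was compared between 10-cell samples, which hold differences between captured cells, and pool-and-split controls, which hold technical differences. No member was called in limma's test of absolute deviations from the set median of log2(CPM + 1), where 0.0254% of genes were called at 12 dpi and 0.621% at 90 dpi. At 12 dpi 5 members were detected often enough to be tested. Olig1 deviated by 1.88 in 10-cell libraries and by 1.07 in controls (difference 0.81, SE 0.29, unadjusted p 0.00617, limma adjusted p 0.362). Sox4 deviated by 1.88 and 1.14 (difference 0.75, SE 0.26, unadjusted p 0.00516, adjusted p 0.360). Sox2 had the opposite sign (-0.42, SE 0.31), and Olig2 (0.45) and Sox10 (0.22) were also not called. At 90 dpi 7 members were tested and none had an unadjusted p under 0.05, the largest difference being that of Sox5 (-0.64, SE 0.39). Olig1 deviated by 1.19 against 0.90 at that time (difference 0.28, SE 0.21).

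Within sets, the levels of members in 10-cell libraries were weakly related to each other. Over the 36 pairs of members the median Pearson r of log2(CPM + 1) was 0.13 at 12 dpi and 0.18 at 90 dpi, and in controls it was 0.09 and 0.00. These libraries share depth and detection, so the values are descriptions. Olig2 and Sox10 had the highest r at both times, 0.60 over 56 libraries at 12 dpi and 0.45 over 56 at 90 dpi, beside 0.15 and 0.25 over 40 controls. For Olig1 and Olig2 r was 0.37 and 0.39, beside 0.08 and 0.33 in controls. Over the 10-cell libraries of both times, of 9081 other genes those most like Olig2 were Tnr (r 0.52), Matn4 (0.49) and Pdgfra (0.48), and Tnr was also among the 3 most like Sox10 (0.45, after Slc22a23 and Map3k2, both 0.46). Those most like Olig1 were Phldb1 (0.43), Ptprz1 (0.42) and Hip1r (0.42). For Sox2 they were Midn (0.57), Anp32e (0.48) and Lypla2 (0.48), and for Sox4 Nolc1 (0.53), Dlgap3 (0.52) and Mlycd (0.52). With the number of genes detected in a 10-cell library, Sox4 had an r of 0.54 at 12 and 0.58 at 90 dpi, the highest of the members. The members found in fewer libraries had as their closest genes Tk1 (Nkx2-2, 0.57), Arhgef26 (Sox5, 0.43), Kri1 (Sox6, 0.35) and Olfr912 (Sox8, 0.44). Many of their values are 0, with a count in 20.5% (Nkx2-2) to 50.9% (Sox6) of these libraries.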

How the data were processed

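RNA of laser-captured cells was sequenced after linear amplification of total RNA (bulk) or PCR amplification of polyA RNA (10-cell and pool-and-split), per the labels' protocols. The authors deposited 1 table of expected counts per gene. RSEM, Bowtie2 and GRCm38 are named in the submitters' processing notes, and their versions and settings are not given in the sources used here. Counts were rounded, 92 spike-ins were left out, and libraries of 1 animal were summed. No 2 libraries were identical.

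Bulk groups were fitted together over 37 animals with edgeR 4.0.16 (R 4.3.3; TMM scaling, quasi-likelihood test, sex as covariate, filterByExpr with a minimum count of 10 and total of 15). Small libraries were summed into sets by time, sex and title number, 4 per time, and tested in the same way; spread was tested with limma 3.58.1. Nothing says that sets or libraries come from separate mice, so those p-values measure the spread between these samples, which may be technical. P-values were adjusted by Benjamini-Hochberg over all genes tested, with a threshold of 0.05. Log ratios and values relative to OPC markers were compared with two-sided exact permutation tests. DESeq2 1.42.0, other scalings, filters, pseudocounts and fits, and leaving out each animal or set were alternatives. The bulk and small-library scripts were tested on simulated data. CPM is counts per 1000000 counts of a library or animal.

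The 9 members and the gene lists were chosen with earlier results of these data known. All members, Nf1 and Trp53 are named, with, per list, the 2 largest rises and falls among called genes in tumours against WT, and the 3 genes most correlated with each member among those detected in at least 50% of 10-cell libraries. Some genes that this rule names are not reported here.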

Additional observations from a re-analysis of the deposited data

Results flagged for a closer look

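A sample far from the others of its group was found in 13 of 90 groups of members' values (Dixon's test at the 95% level, which chance passes in about 1 in 20 groups). The shallow animal WT_21167 was low at 90 dpi for Olig2 (47.4 CPM), Sox8 (56.9 CPM) and Nkx2-2 (0 CPM, at a depth of 0.0937 M counts). In WT at 150 dpi, WT_22062 was low for Olig2 (58.5 CPM) and WT_21593 high for Sox10 (71.2 CPM). In CKO at 12 dpi, CKO_21725 was low for Sox10 (7.11 CPM). Among tumours, Tumor_16839 was high for Sox4 (1746 CPM).

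Single sets of small libraries stood apart for Olig1 (10-cell, 90 dpi, female 1, 715 CPM) and Olig2 (10-cell, 12 dpi, male 2, 82.3 CPM). For Sox8 it was the female 2 pool-and-split set at 12 dpi (77.1 CPM). Nkx2-2 stood apart in the male 1 10-cell set at 90 dpi (8.11 CPM) and in the male 2 pool-and-split sets at 12 dpi (0.0213 CPM) and 90 dpi (1.07 CPM). The value at 12 dpi comes from the 1 of 40 controls with a count of Nkx2-2, the other sets being at 0 CPM.

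The genotype effect differed between 150 and 90 dpi, by edgeR's test of that difference, for Sox6 (2.49), Sox10 (1.81), Nkx2-2 (1.71), Sox8 (1.40), Olig2 (1.19), Sox5 (1.12) and Olig1 (1.04 on the log2 scale).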

How the results depend on the processing

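The count of members called changed under some settings. With only the compared groups fitted, 1 member was called between CKO and WT at 12 dpi and 2 in WT between 90 and 12 dpi, against 0. DESeq2 called 1 member between times in 10-cell sets, against 0. With deviations from the set mean, 1 member (Sox4, 0.77, limma adjusted p 0.0354) differed in spread at 12 dpi, against 0. Each of these settings also called many more genes in all, as listed below. Leaving out 1 animal or set at a time gave 8 to 9 members in tumours against WT and 7 to 8 for the genotype effect at 150 against 90 dpi, and no other count of members moved.

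For the genotype effect at 150 against 90 dpi 8 members were called, against 7, where Sox4 also passed, under DESeq2 (1.42), RLE size factors (1.42) and a mean of at least 10 CPM (1.37). DESeq2 called 5555 genes in all for this effect, against 4904 of 16349 by edgeR. Without Tumor_16839 Sox4 was at 0.45 there (edgeR adjusted p 0.343), and over its alternatives the adjusted p ran from 0.0211 to 0.343. With the compared groups alone Sox11 (1.75, edgeR adjusted p 0.0789) and Sox17 (-1.40, adjusted p 0.0992) were not called in tumours against WT, and Nf1 was not called there either (-0.43, adjusted p 0.0922; -0.31 and 0.0532 with RLE). Relative to the OPC markers, Sox8 against CKO (-0.0900) and Sox2 (-0.0557) and Sox4 (-0.32) against WT changed sign. RLE size factors moved the median change of all genes in tumours from 0.06 to 0.22 against WT and from 0.12 to 0.29 against CKO, and all 9 members were still called higher.

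Genes called in all, where they moved by over 1.5 times, were as follows. CKO against WT at 12 dpi gave 3, but 13 by DESeq2, 1 at a mean of at least 10 CPM and 92 with the compared groups alone, and at 90 dpi 8, but 18 and 4 in the first 2 settings. CKO between times gave 0, but 2 by DESeq2 and 1 with the groups alone, and WT from 12 to 90 dpi gave 1, but 9 and 295. WT from 90 to 150 dpi gave 3, but 20 by DESeq2 and 5 without the sex covariate. The genotype effect at 90 against 12 dpi gave 0, but 6 by DESeq2 and 1 without a filter. The 10-cell sets gave 0, but 273 by DESeq2 and 251 with each library as a unit, and pool-and-split sets 0, but 523, 239 and, without a filter, 1. Spread at 12 dpi gave 2, but 11 and 0 with pseudocounts of 0.1 and 5, 6 at 90% detection and 298 from the set mean, and at 90 dpi 60, but 668 from the set mean.

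With sex and number as a replicate block, 0 members were called in either kind of small library. The numbers were not taken as pairing the sets, whose correlations across times ran from -0.035 to 0.025. Depth limits WT_21167 and the small libraries, where most members have a count of 0 in many libraries.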
